A study of Mus musculus with 2 samples.

Results

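The mouse colon data were read for 43 genes of the cell cycle, which were taken by gene symbol from the gene table shared by both libraries. All 43 were among its 31053 genes. They were divided by their known time of use into 16 S genes, which serve DNA replication, 24 G2/M genes, which serve mitosis, and 3 broad genes (Stmn1, Hmgb2 and H2afz), which dividing cells hold in excess but many resting cells also use. Over both libraries the members ranged from 16 UMIs to 31138 UMIs, where a UMI is a tag that marks 1 captured RNA molecule, and 1 member (Plk1, at 16) stayed under 20 UMIs. Each of the 43 could be matched to a gene of the GENCODE M21 annotation, on 17 chromosomes, and 7 of them overlap another gene on the same strand. Pcna, Tyms, Ccnb1 and Ccnb2 have pseudogenes named for them, so their counts could hold misplaced reads.

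The cells came from colons of bone marrow chimeras, in which CD45.1 recipient mice carried blood-forming cells of CD45.2 donors. One library was made from IL-10R KO donors, which lack the receptor for the cytokine IL-10 through a deletion of Il10rb, and 1 library from IL-10R/CerS2 DKO donors, which lack that receptor and also Cers2, which encodes a synthase of ceramides with very long acyl chains. They are called KO and DKO here. Both groups thus share the receptor deletion, which is in all donor-derived blood cells, while cells of other lineages remain those of the recipient. Cells had been sorted with antibodies to CD45.2, CD11b, CD11c and CD64 a gate designed against neutrophils and lymphocytes, and were labelled as colon macrophages. The age of the mice and the number pooled in a library are not given in the sources used here. With 1 library per genotype no difference between genotypes could be tested, and genotype cannot be told apart from mouse, sort or library.

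A cell that divides first copies its DNA in S phase and then separates the copies in mitosis. Genes of the first step are switched on by E2F transcription factors and include the MCM proteins, which form the helicase that opens the DNA, Pcna, the clamp that holds the polymerase on it, and enzymes that make nucleotides such as Rrm1, Rrm2, Tyms and Tk1. Genes of the second step are switched on later through promoter elements named CHR and CCAAT, and include the kinase Cdk1 with its cyclins, motors and kinetochore proteins of the spindle, and Ube2c and Cdc20, which help to destroy cyclins as mitosis ends. In the gut wall most resident macrophages arise from blood monocytes and divide little, neutrophils no longer divide, and activated T cells and germinal centre B cells divide fast.

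The promoters of the members carried these elements unequally in the S and G2/M groups. RefSeq promoter windows of 300 bases (250 before and 50 after the start, GRCm38.p6) were found for 35 members, in 37 windows. Ccne2, Mcm4, Gins2, Ccna2, Aurkb, Tpx2, Kif20a and Stmn1 had none. Both strands were searched for E2F letters (TTTCCCGC, TTTCGCGC, TTTGCCGC or TTTGGCGC), for CHR letters (TTTGAA or TTTAAA) and for CCAAT. E2F letters stood in 6 of 15 S windows (40%), in 1 of 20 G2/M windows (5%, the window of Cdk1) and in 2.26% of all 32851 windows. CHR letters stood in 18 of 20 G2/M windows (90%), 6 of 15 S windows (40%) and 27.6% of all windows. CHR and CCAAT letters together stood in 17 of 20 G2/M windows (85%), 5 of 15 S windows (33.3%) and 10.7% of all windows. A match of letters is a description of the window and was not measured as a bound site. The 160 bases before the start are shown for 2 S members with E2F letters and for 4 G2/M members with CHR letters, with matches to any of the 3 elements in capitals.
Mcm5 (chr8:75109349-75109508, plus strand): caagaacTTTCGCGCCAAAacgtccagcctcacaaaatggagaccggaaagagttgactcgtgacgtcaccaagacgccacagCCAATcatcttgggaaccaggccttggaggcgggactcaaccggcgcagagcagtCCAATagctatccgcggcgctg
Mcm6 (chr1:128359706-128359865, minus strand): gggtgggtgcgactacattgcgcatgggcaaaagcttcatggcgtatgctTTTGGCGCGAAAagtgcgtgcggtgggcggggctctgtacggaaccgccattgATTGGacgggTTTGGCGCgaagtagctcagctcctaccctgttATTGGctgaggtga
Mki67 (chr7:135716380-135716539, minus strand): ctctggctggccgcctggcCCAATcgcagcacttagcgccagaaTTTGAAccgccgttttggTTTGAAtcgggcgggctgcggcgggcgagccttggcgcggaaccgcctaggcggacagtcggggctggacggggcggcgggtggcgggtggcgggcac
Top2a (chr11:99024190-99024349, minus strand): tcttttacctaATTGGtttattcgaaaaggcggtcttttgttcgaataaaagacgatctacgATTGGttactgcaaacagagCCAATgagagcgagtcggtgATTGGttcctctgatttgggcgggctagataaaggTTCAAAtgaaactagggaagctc
Plk1 (chr7:122159275-122159434, plus strand): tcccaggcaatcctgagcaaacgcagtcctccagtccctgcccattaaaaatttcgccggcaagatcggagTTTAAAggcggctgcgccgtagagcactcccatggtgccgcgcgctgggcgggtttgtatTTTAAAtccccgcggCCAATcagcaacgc
Kif11 (chr19:37376222-37376381, plus strand): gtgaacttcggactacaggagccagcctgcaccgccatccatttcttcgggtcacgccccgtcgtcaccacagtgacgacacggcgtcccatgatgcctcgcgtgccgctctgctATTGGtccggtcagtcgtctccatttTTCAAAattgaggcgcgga
Mcm5 and Mcm6, subunits of the helicase, each hold a pair of overlapping E2F matches on opposite strands, at 153 and 149 and at 110 and 106 bases before the start. Top2a, which encodes the enzyme that untangles DNA before mitosis, has a CHR match 23 bases before its start and 4 CCAAT matches further upstream in the stretch shown. Plk1, a mitotic kinase, and Kif11, a spindle motor, have CHR matches at 29 and 19 bases before the start.

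The deposited libraries held 2584 (KO) and 742 (DKO) barcodes, of which 2443 and 730 were kept at 300 to 5000 genes and at most 10% mitochondrial UMIs, with medians of 4715 and 3722 UMIs. Cells were put into classes by marker genes (at least 3 distinct markers of a class and 2 more than of any other), and 222 KO and 65 DKO cells stayed ungated. Monocyte/macrophage-like cells were 61.9% of kept KO cells (1513) and 45.2% of kept DKO cells (330), so both libraries held other cells beside the labelled type. These were T and innate lymphoid-like cells (302 and 112, of which 300 and 111 had a UMI of a CD3 or T cell receptor gene), B cell-like cells (215 and 162), neutrophil-like cells (147 and 44) and a few others. Cers2 was counted 552 times among kept KO cells and 2 times among DKO cells. Il10rb, whose deleted part a 3′ tag need not cover, was counted 74 and 14 times. 1 cell barcode occurred in both libraries, with 1 and 2 members detected.

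Cells with 5 or more members detected made up 17.4% and 16.4% of the libraries and, among the 4 large classes, were most frequent in T and innate lymphoid-like cells. In KO they were 424 of 2443 (exact 95% binomial interval 15.9 to 18.9) and in DKO 120 of 730 (13.8 to 19.3). Intervals throughout cover counting error only. The T and innate lymphoid-like class reached the limit in 112 of 302 cells for KO (37.1%, 31.6 to 42.8) and in 37 of 112 for DKO (33.0%, 24.4 to 42.6). Monocyte/macrophage-like cells reached it in 249 of 1513 (16.5%, 14.6 to 18.4) and 47 of 330 (14.2%, 10.7 to 18.5), and B cell-like cells in 15 of 215 (6.98%, 3.96 to 11.2) and 15 of 162 (9.26%, 5.28 to 14.8). The intervals of the libraries overlapped in each of these 3 classes. No neutrophil-like cell reached it, 0 of 147 and 0 of 44, with exact upper bounds of 2.48% and 8.04%. Their median depth, however, was 1622 and 1550.5 UMIs against 5513 and 5455 in monocyte/macrophage-like cells.

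The cells past the limit were also the deeper ones. Monocyte/macrophage-like cells with 5 or more members had medians of 7660 (KO) and 7740 (DKO) UMIs, the others 5228 and 5268. Each cell was therefore thinned at random to 2000 UMIs, which left out 393 KO and 121 DKO cells with fewer. The T and innate lymphoid-like class then kept 45 of 291 cells for KO (15.5%, 11.5 to 20.1) and 9 of 108 for DKO (8.33%, 3.88 to 15.2). For monocyte/macrophage-like cells 18 of 1398 (1.29%, 0.765 to 2.03) and 8 of 301 (2.66%, 1.15 to 5.17) were left. With another random draw, after cells over 5% mitochondrial UMIs were left out, the latter was 4 of 300 (1.33%, 0.364 to 3.38), and the 108 DKO cells of the former class gave 12 in place of 9. B cell-like cells had 6 of 169 (3.55%, 1.31 to 7.57) and 8 of 134 (5.97%, 2.61 to 11.4), and neutrophil-like cells 0 of 44 and 0 of 12. The intervals of KO and DKO overlapped in every class, while in KO those of T and innate lymphoid-like cells lay above those of the other 2 large classes.

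**Figure D1:**
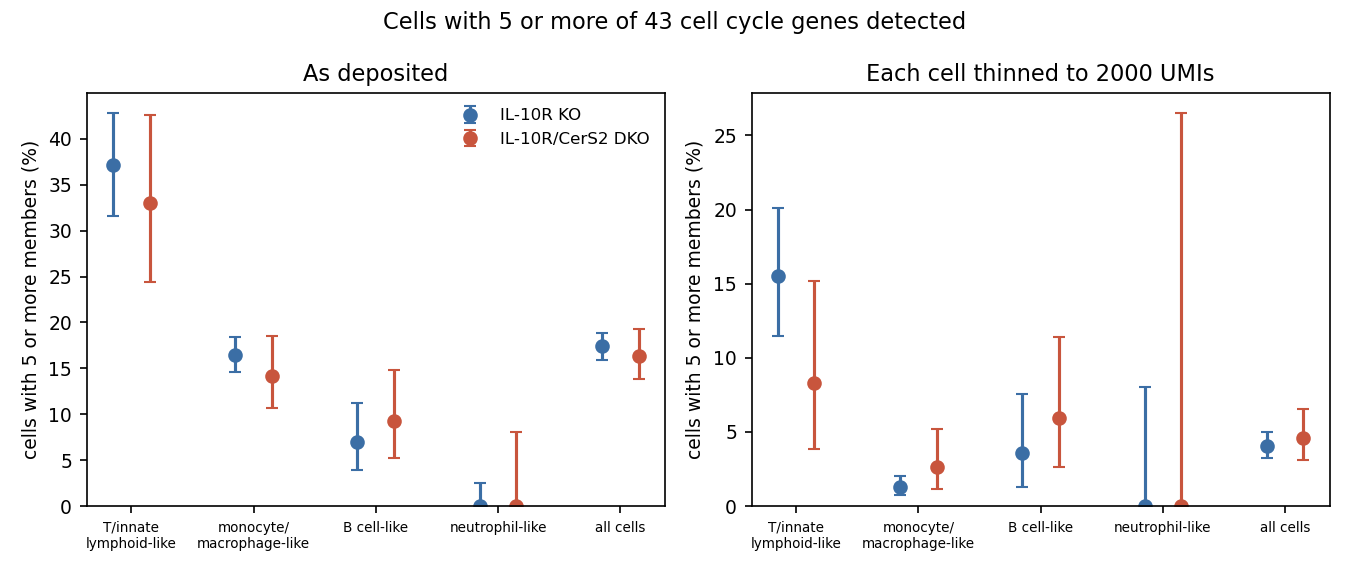
Share of cells (%, with exact 95% binomial intervals) that had 5 or more of the 43 members, by class and library, as deposited on the left and after thinning each cell to 2000 UMIs on the right. Of the 4 classes T and innate lymphoid-like cells were highest on both sides, and thinning lowered monocyte/macrophage-like cells from 16.5% to 1.29% in KO.

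Most cells past the limit of 5 held few S or G2/M genes, and a smaller set held many of both. Among the 249 KO monocyte/macrophage-like cells the median was 2 S and 2 G2/M genes, and among the 112 KO T and innate lymphoid-like cells 2 and 1. At 10 or more members there were 50 cells in KO and 13 in DKO, in the plot of S against G2/M genes. Of these 63 cells 26 were T and innate lymphoid-like, 13 monocyte/macrophage-like, 6 epithelial-like, 4 B cell-like, 3 plasma cell-like, 2 dendritic cell-like, 1 of the mast cell, basophil and eosinophil class and 8 ungated. T and innate lymphoid-like cells with 10 or more members were 23 of 302 in KO (7.62%, 4.89 to 11.2) and 3 of 112 in DKO (2.68%, 0.556 to 7.63). Monocyte/macrophage-like cells were 8 of 1513 (0.529%, 0.229 to 1.04) and 5 of 330 (1.52%, 0.494 to 3.50). Both pairs of intervals overlapped.

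Of the 23 KO T and innate lymphoid-like cells, 16 had at least 5 S and at least 5 G2/M genes, 5 had at least 5 S genes but fewer than 5 G2/M genes, and 2 the opposite. 30 or more members were found in 9 cells, and the highest had 40, with 14 S and 23 G2/M genes. The 3 DKO cells had 10, 19 and 36 members. All of the 23 had UMIs of Stmn1, Hmgb2 and H2afz. Their median depth was 10825 UMIs against 3746 in the other KO cells of the class, and their median doublet score was 0.0744 against 0.0174. Markers of the next class were at a median of 1 in both sets. Among monocyte/macrophage-like cells all 13 carried mature macrophage markers (9 with these alone and 4 with monocyte markers too). None of the 325 KO and 59 DKO cells with monocyte markers alone had 10 or more members. Of the whole class 43.9% (KO) and 47.0% (DKO) had mature macrophage markers alone, and 17.3% and 17.6% had both. The 8 KO and 5 DKO cells were deeper, at medians of 10706 and 10157 UMIs against 5499 and 5436 in the rest. Their median doublet scores were 0.0619 and 0.0732 against 0.0491 and 0.0440. A KO cell of 24 members had 8 markers of another class and a score of 0.185.

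**Figure D2:**
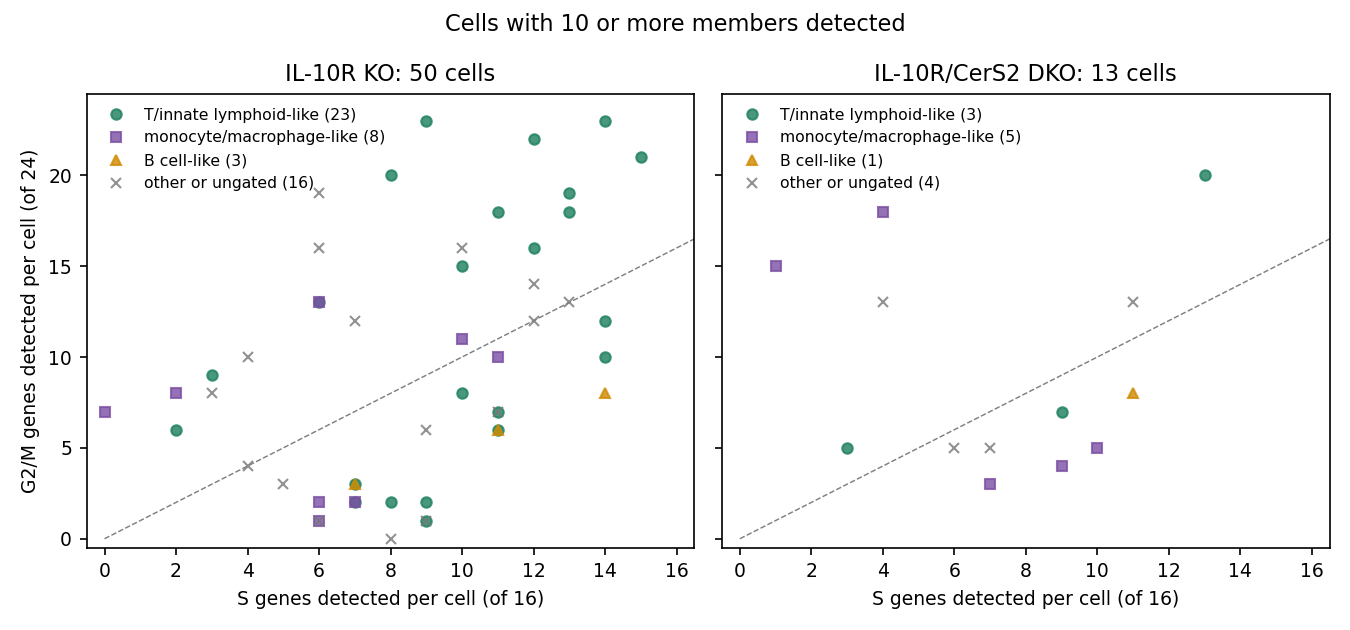
Number of S genes (of 16) and G2/M genes (of 24) detected in each of the 63 cells with 10 or more members, by library and class, with the dashed line at equal numbers. The KO panel holds 23 T and innate lymphoid-like cells, up to 23 G2/M genes, and the DKO panel 3.

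Within the monocyte/macrophage-like class, cells with macrophage markers passed the limit more often than cells with monocyte markers. Cells with at least 2 mature macrophage markers and fewer than 2 monocyte markers had 5 or more members in 148 of 664 cells for KO (22.3%, 19.2 to 25.6) and 31 of 155 for DKO (20%, 14.0 to 27.2). Cells with monocyte markers alone had them in 25 of 325 (7.69%, 5.04 to 11.1) and 4 of 59 (6.78%, 1.88 to 16.5), so the intervals did not overlap within KO and overlapped within DKO. Median depths were 6219 against 5043 UMIs in KO and 5341 against 5453 in DKO. After thinning the mature cells gave 12 of 600 (2%, 1.04 to 3.47) and 4 of 138 (2.90%, 0.795 to 7.26), the monocyte cells 2 of 315 (0.635%, 0.0770 to 2.27) and 1 of 58 (1.72%, 0.0436 to 9.24), and these intervals overlapped.

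In KO most members were at a higher level in T and innate lymphoid-like cells than in the other large classes. Counts were summed per class and divided by the class total, in counts per 1000000 UMIs (CPM). In KO 42 of 43 members were higher in T and innate lymphoid-like than in monocyte/macrophage-like cells, and 41 of 43 higher than in B cell-like cells. The exception to the former was Bub1b, a checkpoint kinase of mitosis (9.90 CPM in monocyte/macrophage-like cells, from 86 UMIs). In DKO 33 of 43 members were higher in T and innate lymphoid-like than in monocyte/macrophage-like cells. Any difference in CPM counts as higher in these counts. The share of all genes that were higher in that class was not computed. The summed S genes were at 718 CPM in KO and 571 in DKO in T and innate lymphoid-like cells, 207 and 226 in monocyte/macrophage-like cells, 413 and 338 in B cell-like cells, and 45.4 and 104 in neutrophil-like cells. The summed G2/M genes were at 979 and 521 CPM, 166 and 259.6, 207 and 312, and 60.6 and 104 in the same order of classes. In neutrophil-like cells 34 of 43 members in KO and 38 of 43 in DKO were at 0, with only 264073 and 76607 UMIs of all genes. How many of all genes were at 0 in these cells was not computed. Their sums rest on 12 and 8 UMIs for the S genes and on 16 and 8 UMIs for the G2/M genes.

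**Figure D3:**
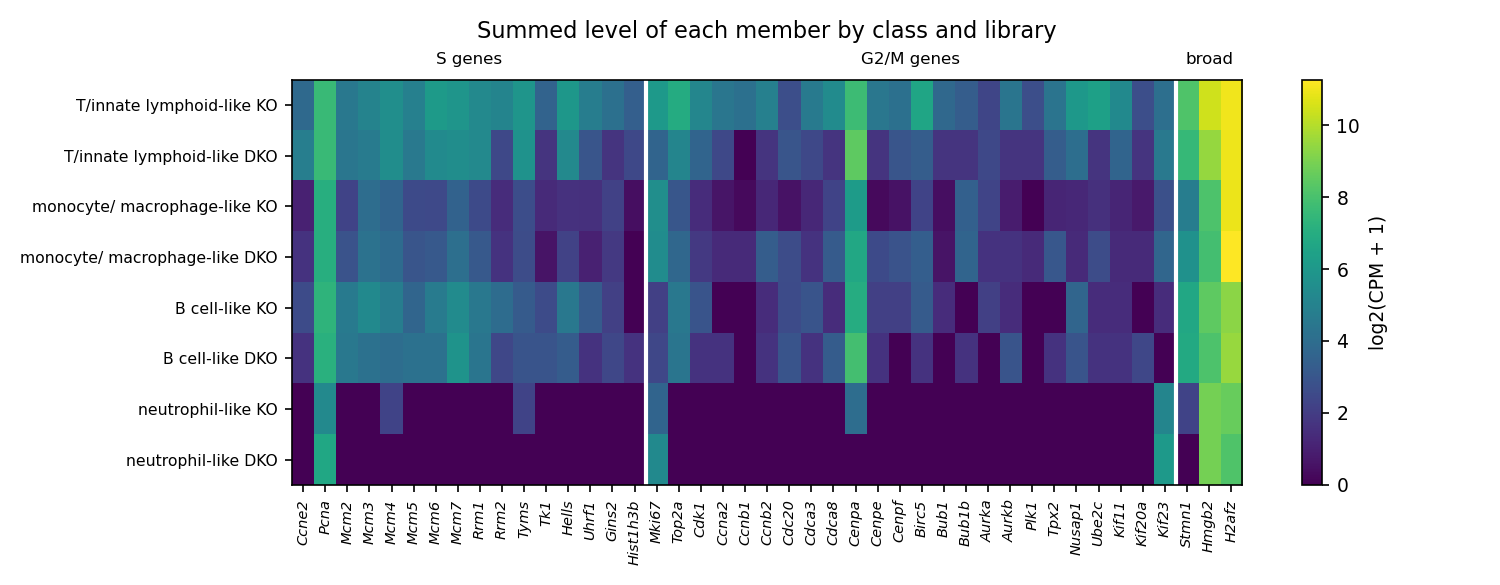
Summed level of each member as log2(CPM + 1) in 4 classes of both libraries, with S, G2/M and broad genes separated by white lines. The KO row of T and innate lymphoid-like cells holds the highest level of 19 of 24 G2/M genes and 12 of 16 S genes, and Cenpa is highest in the DKO row of that class.

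Among the S genes, Pcna alone gave 1737 of the 3626 UMIs in KO and 464 of the 980 in DKO. It was found in 1043 of 2443 KO cells (42.7%) and in 284 of 730 DKO cells (38.9%), at 196 CPM in T and innate lymphoid-like cells of either library, 134 and 132 CPM in monocyte/macrophage-like cells and 158 and 139 CPM in B cell-like cells. Neutrophil-like cells, at a median of 1622 and 1550.5 UMIs, held it in 6.80% and 13.6% of cells. The MCM genes showed a wider range. Mcm6, a helicase subunit, was at 68.7 CPM in KO T and innate lymphoid-like cells (101 UMIs) and 4.60 CPM in KO monocyte/macrophage-like cells (40 UMIs). Rrm2, the ribonucleotide reductase subunit made in S phase, was at 33.3 CPM (49 UMIs) and 1.73 CPM (15 UMIs). Mcm3, Mcm4 and Mcm7 were at 32.0, 45.6 and 57.1 CPM in the first class and 15.2, 11.5 and 10.5 CPM in the second. Hells, a remodeller of chromatin, was at 61.2 and 2.07 CPM, Rrm1, the partner of Rrm2, at 38.8 and 4.72 CPM, and Tyms, the thymidylate synthase, at 57.1 and 5.41 CPM. Hist1h3b, a histone made in S phase, summed to 21 UMIs for KO and 7 for DKO.

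Among the G2/M genes, Cenpa, the histone variant of the centromere, gave the most UMIs of the group, 1090 for KO and 513 for DKO. It was found in 612 of 2443 KO cells (25.1%) and 244 of 730 DKO cells (33.4%), and in 2.72% of KO neutrophil-like cells. Mki67, a protein that coats mitotic chromosomes and the usual marker of dividing cells, had 580 and 111 UMIs. In KO 404 of them were in monocyte/macrophage-like cells and 97 in T and innate lymphoid-like cells, or 46.5 and 65.9 CPM. At 2000 UMIs a cell the KO library held it in 106 of 1398 monocyte/macrophage-like cells (7.58%, 6.25 to 9.10), in 14 of 291 T and innate lymphoid-like cells (4.81%, 2.65 to 7.94), beside 1 of 44 neutrophil-like cells (2.27%, 0.0575 to 12.0). Before thinning the medians of these cells were 5707, 3962 and 2286 UMIs. Top2a went the other way, in 17 of 1398 (1.22%, 0.710 to 1.94) and 18 of 291 (6.19%, 3.71 to 9.60), as did Birc5, or survivin, a part of the complex that guides chromosomes, in 5 of 1398 (0.358%, 0.116 to 0.833) and 12 of 291 (4.12%, 2.15 to 7.09). Neither was found in the 44 neutrophil-like cells, with an exact upper bound of 8.04%.

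The members also differed in how far they occurred together. For each gene, thinned cells with 5 or more of the other 42 members were set against the remaining cells, as a description with no test. Ccna2, the cyclin of S and G2, had 7 UMIs in 111 such cells and 1 UMI in 2548 others, and Rrm2 had 15 and 3. Birc5 was 89.8 times as high in such cells (31 UMIs against 8), Ube2c 86.6 times (22 against 6), Cdk1 52.6 times (18 against 8) and Top2a 27.6 times (39 against 34). Cenpa was 1.27 times as high, Aurka 1.24, H2afz 1.43, Bub1b 1.56, Pcna 1.74 and Kif23 1.90, while Mki67 was 4.39 times as high. Counting UMIs of all kept cells by library, those with 10 or more members held 89.7% of the Birc5 UMIs in KO and 96.8% in DKO, and 76.3% and 86.1% for Top2a. They held 23.6% and 23.4% of the Mki67 UMIs, 12.1% and 11.4% for Pcna, 11.7% and 6.82% for Cenpa, and 8.80% and 5.62% for H2afz. In KO monocyte/macrophage-like cells 387 of 404 Mki67 UMIs lay in cells with fewer than 10 members. Each gene counts itself among the members in these shares.

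**Figure D4:**
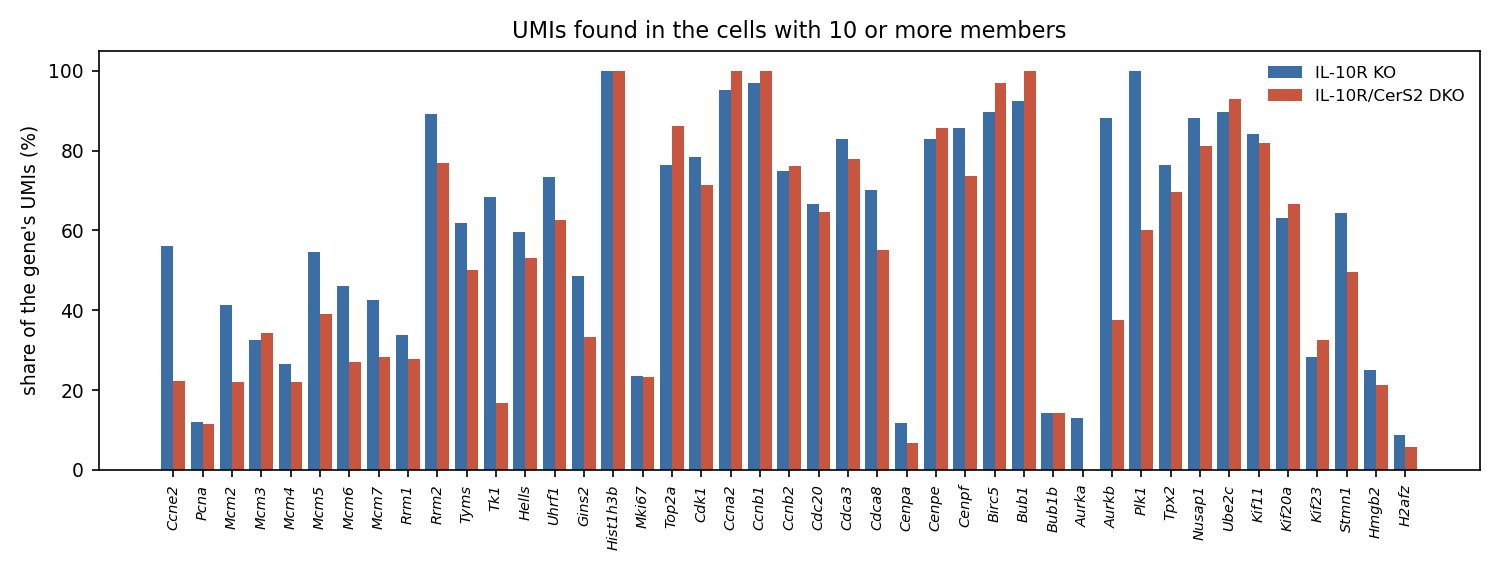
Share (%) of each member's UMIs that lay in the 50 KO and 13 DKO cells with 10 or more members, over all kept cells. In KO 19 of 24 G2/M genes and 5 of 16 S genes stand at 60% or more, and Pcna, Mki67, Cenpa, Bub1b, Aurka and H2afz stand under 25% in both libraries.

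In T and innate lymphoid-like cells the summed G2/M genes were lower in DKO than in KO, and 14 of the 19 counted had an interval below 0. How many of all genes had such an interval in this class was not computed. The log2 ratio of DKO over KO of the summed G2/M genes was -0.91 (exact interval -1.12 to -0.71), from 1440 and 231 UMIs, and that of the summed S genes -0.33 (-0.53 to -0.13), from 1056 and 253. Of the 36 members with at least 20 UMIs in the class, 19 were lower by a fold of 2 or more, beside 9.67% of 6834 genes, and 1 was higher (Ccne2), beside 3.48%. The 19 were 3 S genes and 16 G2/M genes. The median log2 ratio was -1.97 over the 19 G2/M genes counted (-1.89 with Ccnb1 at its limit), -0.30 over 14 S genes and -0.07 over all genes. The other 7 members (Tk1, Hist1h3b, Cdc20, Bub1b, Aurka, Plk1 and Kif20a) had fewer UMIs. Counting intervals of these ratios do not cover the spread between cells.

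Ube2c was at 83.6 CPM for KO (123 UMIs) and 2.26 CPM for DKO (1 UMI), which gives a log2 ratio of -4.63 (-10.53 to -2.71). Birc5 was at 96.5 and 9.02 CPM (142 and 4 UMIs), a ratio of -3.25 (-5.32 to -2.03). Mki67 was at 65.9 and 11.3 CPM (97 and 5 UMIs), a ratio of -2.42 (-4.20 to -1.28). These 3 mitotic genes left 1 to 5 UMIs in the 112 DKO cells of the class. Top2a had 175 and 15 UMIs, a ratio of -1.77 (-2.68 to -1.05), and Cdk1 had 51 and 5 UMIs, a ratio of -1.50 (-3.30 to -0.30). Cdca8 (61 and 1 UMIs, -3.63, -9.53 to -1.67) and Nusap1, a binder of spindle microtubules (92 and 7, -1.89, -3.34 to -0.89), were lower as well. Ccnb1, the cyclin that starts mitosis, was counted 25 times in KO and 0 times in DKO, at least 2.51-fold lower if 3 UMIs are taken as the limit of detection. The replication genes Pcna (289 and 87 UMIs, 0.00, -0.36 to 0.35), Mcm2 (32 and 9, -0.04, -1.35 to 1), Mcm4 (67 and 20, 0.01, -0.81 to 0.72) and Tyms (84 and 23, -0.12, -0.87 to 0.54) had intervals that held 0, whereas Rrm2 (49 and 2, -2.58, -5.97 to -0.95), Uhrf1 (39 and 3, -1.77, -4.31 to -0.32) and Gins2 (25 and 1, -2.36, -8.27 to -0.30) were lower. Of the 19 mitotic genes counted 2 were higher in DKO, Cenpa at 211 and 349.6 CPM (310 and 155 UMIs, 0.73, 0.44 to 1.01) and Kif23 at 16.3 and 22.6 CPM (24 and 10 UMIs, 0.51, -0.76 to 1.58). Without Cenpa the G2/M ratio was -2.16 (-2.52 to -1.83).

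The 23 KO cells with 10 or more members held 1142 of the 1440 G2/M UMIs of the class (79.3%) and 633 of the 1056 S UMIs (59.9%). The cell with the most G2/M UMIs held 168 (11.7%). The 3 DKO cells held 61 of 231 (26.4%) and 78 of 253 (30.8%). Without these cells, an alternative chosen after the data were seen, the log2 ratio of G2/M genes turned to 0.67 (0.39 to 0.94), from 298 and 170 UMIs of which Cenpa gave 220 and 152, and that of S genes to 0.20 (-0.06 to 0.46). Since these cells were chosen by the same members, leaving them out must take away many of the UMIs compared. The cells left out were 7.62% and 2.68% of the class, with overlapping intervals. Without the barcodes in the top 5% of doublet scores the G2/M ratio was -0.99 (-1.20 to -0.79).

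In monocyte/macrophage-like cells the summed G2/M genes were higher in DKO. Of the 12 G2/M genes with at least 20 UMIs, 10 had a ratio above 0 and 8 an interval above 0, and the other 12 were not counted. How many of all genes had a ratio or an interval above 0 in this class was not computed. The log2 ratio of the summed G2/M genes was 0.65 (0.50 to 0.80), from 1440 and 498 UMIs, and that of the summed S genes 0.13 (-0.03 to 0.28), from 1796 and 433. Of 26 members with at least 20 UMIs, 6 were higher by a fold of 2 or more, all G2/M genes, beside 3.85% of 9785 genes, and 0 were lower, beside 3.43%. The other 17 members had fewer UMIs. The 6 were Ccnb2, a mitotic cyclin (12 and 17 UMIs, 2.66, 1.53 to 3.88), Tpx2, a spindle assembly factor (11 and 14, 2.51, 1.28 to 3.81), Ube2c (17 and 10, 1.44, 0.12 to 2.62), Birc5 (33 and 18, 1.32, 0.39 to 2.18), Cdca8, its partner on chromosomes (33 and 16, 1.16, 0.17 to 2.04), and Kif23, a motor of cell division (49 and 23, 1.10, 0.31 to 1.83). Mki67 had 404 and 83 UMIs, a ratio of -0.10 (-0.46 to 0.24), and Aurka, a kinase of the spindle poles, 34 and 4 UMIs, a ratio of -0.76 (-2.86 to 0.58).

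Here a few cells held a larger part of the G2/M sum in DKO than in KO. The 5 DKO cells with 10 or more members held 179 of 498 G2/M UMIs (35.9%), and 1 cell held 81 (16.3%). The deepest of the 5 had 30158 UMIs, with 1 S gene and 15 G2/M genes. It had 4 markers of another class and a doublet score of 0.106, against a median score of 0.0440 in the rest of the class. The 8 KO cells held 115 of 1440 (7.99%). Those 5 cells held all 18 Birc5 UMIs and all 10 Ube2c UMIs of the DKO class, and 13 of 17 Ccnb2 UMIs. Without cells of 10 or more members the G2/M ratio was 0.17 (-0.01 to 0.35). Cenpa was less concentrated, with 616 and 204 UMIs (0.59, 0.35 to 0.82), of which 609 and 181 lay outside these cells. Leaving out the barcodes in the top 5% of doublet scores gave a G2/M ratio of 0.47 (0.30 to 0.63). Among the S genes the 6 MCM subunits had ratios of 0.24 to 0.79, and each of their intervals held 0. Without Pcna the S ratio was 0.37 (0.12 to 0.61).

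**Figure D5:**
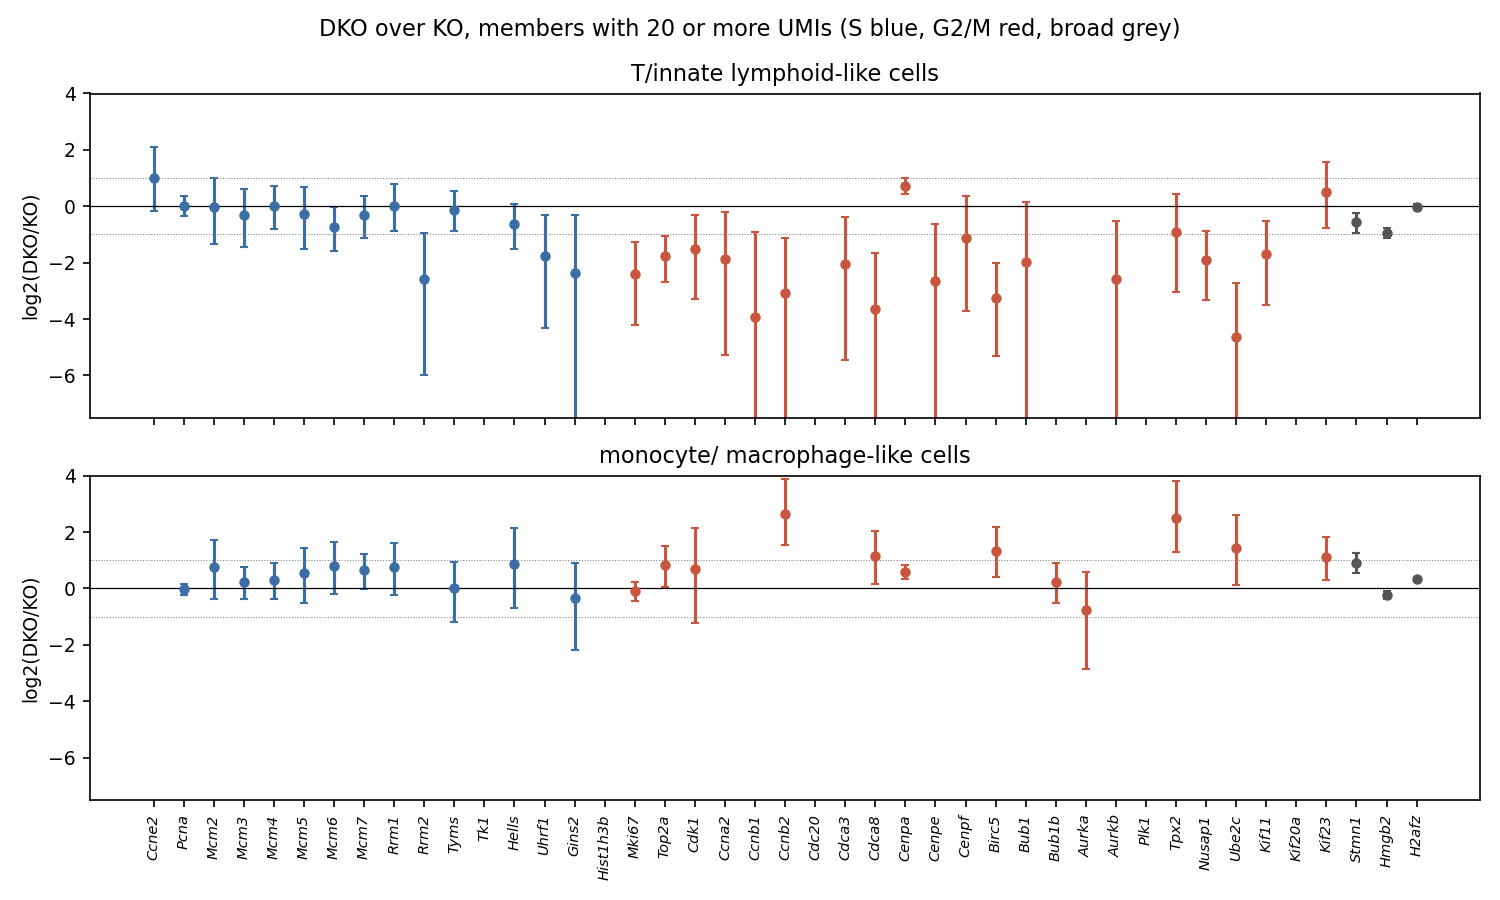
log2 ratio of DKO over KO for members with 20 or more UMIs, with exact 95% intervals (some run past the lower edge), in T and innate lymphoid-like cells above and monocyte/macrophage-like cells below. Dotted lines mark a fold of 2, which 19 members pass downward in the upper panel and 6 upward in the lower.

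B cell-like cells gave few counts. Of 12 members with at least 20 UMIs 0 were higher by a fold of 2 or more, beside 3.28% of 5089 genes, and 1 was lower (Mcm3, 24 and 8 UMIs, -1.14, -2.56 to 0.00), beside 2.99%. The summed G2/M genes had a log2 ratio of 0.59 (0.24 to 0.95), from 125 and 144 UMIs, of which Cenpa gave 74 and 108. Without Cenpa the ratio was -0.11 (-0.77 to 0.53), from 51 and 36. Cenpa was thus higher in DKO in all 3 large classes, at 123 and 234 CPM in B cell-like cells. The 3 KO cells with 10 or more members had 13, 20 and 25 members, and those with 20 and 25 also had UMIs of 7 and 8 of 10 germinal centre B cell genes. The DKO cell, with 22 members, had 1 of them.

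The broad genes were detected far outside the cells with many members. H2afz, a histone variant, was found in 85.5% of kept KO cells and 84.2% of kept DKO cells, and Hmgb2, a chromatin protein, in 63.9% and 54.7%. In neutrophil-like cells Hmgb2 was at 477 and 483 CPM and H2afz at 394 and 287. Stmn1, a regulator of microtubules, was found in 12.2% and 14.5% of cells, and cells with 10 or more members held 64.3% and 49.6% of its UMIs. In T and innate lymphoid-like cells Hmgb2 had 2028 and 319 UMIs, a log2 ratio of -0.94 (-1.11 to -0.77), and Stmn1 412 and 83, a ratio of -0.57 (-0.94 to -0.24). In monocyte/macrophage-like cells Stmn1 had 231 and 96 UMIs, a ratio of 0.92 (0.55 to 1.26), and Hmgb2 2386 and 447, a ratio of -0.24 (-0.39 to -0.09).

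Cell cycle genes that are no members were compared between cells with 5 or more members and the others, both thinned, over both libraries. In T and innate lymphoid-like cells (54 and 345) a list of 10 replication-dependent histones was at 3111 against 225 CPM (13.8 times), with 7 of 7 genes of at least 20 UMIs higher by their intervals. A list of 35 other S phase genes was at 2000 against 599 CPM (3.34 times, 6 of 9 genes) and a list of 40 other mitotic genes at 1519 against 457 CPM (3.33 times, 1 of 4 genes). G1 cyclins, kinases and E2F-Rb genes were at 796 against 616 CPM, and CDK inhibitors and p53 targets at 3926 against 4196. Among single genes the highest ratio belonged to Pclaf, a partner of Pcna, with 22 UMIs in the 54 cells and 1 in the 345, followed by Hist1h2ae (146 and 16), Hist1h1b (28 and 5) and Hist1h2ap (92 and 20). Tubb5, a tubulin of the spindle, followed with 80 and 97 UMIs. Dut, Serpinb1a, Tuba1b, Polr2c and Selenoh completed the top 10, at 4.56, 4.21, 3.61, 3.27 and 3.08 times. T and innate lymphoid markers were at 7343 against 7367 CPM, and stromal and endothelial markers at 120.4 against 31.9 CPM (13 and 22 UMIs).

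In monocyte/macrophage-like cells (26 and 1673) histones were at 712 against 139 CPM (5.11 times), S phase genes at 865 against 270.5 (3.20 times) and mitotic genes at 942 against 255 (3.70 times). Only the 415 other genes with at least 20 UMIs in the 26 cells were ranked by their ratio. The S phase, mitotic and histone lists summed to 45, 49 and 37 UMIs there, so few of their genes could enter. The chemokines Ccl7 (45 UMIs in the 26 cells and 327 in the others), Ccl2 (30 and 305) and Cxcl1 (31 and 419) ranked first. Retnla (32 and 531) and Tubb5 (29 and 596) came next. Iigp1, Selenop, Ly6a, Hmgb1 and Tuba1b followed at 2.23 to 2.66 times. Mature macrophage markers were higher in these cells in KO but not in DKO, at 13972 against 6704 CPM in KO (18 and 1380 cells) and 7000 against 8218 CPM in DKO (8 and 293 cells, log2 ratio -0.23, -0.51 to 0.04). T and innate lymphoid markers were at 19.2 against 122 CPM over both libraries (1 and 407 UMIs). Epithelial markers were at 173 against 10.2 CPM (9 and 34 UMIs), and their part in these values was not tested. In B cell-like cells (14 and 289) S phase genes were at 1500 against 500 CPM, mitotic genes at 893 against 256, histones at 893 against 218 and germinal centre genes at 321 against 72.7, from 9 and 42 UMIs. Among the top genes there were Eif5a, Chchd2, Foxp1, Slc38a2, Pnrc1, Cox8a, Actg1, Dynll1 and Son, at 1.49 to 1.88 times. None of these is on a cell cycle list, but a gene needed at least 20 UMIs in the 14 cells to be ranked. The S phase, mitotic and histone lists summed to 42, 25 and 25 UMIs in those cells.

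The lists were also compared between genotypes, over all UMIs of a class. In T and innate lymphoid-like cells the log2 ratio of DKO over KO was -0.53 (-0.70 to -0.37) for S phase genes, -0.66 (-0.86 to -0.47) for mitotic genes and -0.64 (-0.80 to -0.49) for histones, of which 10 of 10 were lower. In monocyte/macrophage-like cells the ratios were 0.05 (-0.08 to 0.18), 0.25 (0.12 to 0.38) and 0.15 (-0.04 to 0.33), G1 genes were at 0.36 (0.24 to 0.48) and CDK inhibitors and p53 targets at -0.14 (-0.17 to -0.10). In B cell-like cells they were 0.08 (-0.15 to 0.31), 0.41 (0.09 to 0.73, 5 of 5 genes higher) and 0.35 (0.03 to 0.66). The G2/M members without Cenpa were at -0.11 there (-0.77 to 0.53). Over all genes of at least 20 UMIs the median was -0.07 in the first class, 0.08 in the second and 0.05 in the B cell-like class. Any difference counts as lower or higher for the genes of these lists, and the share of all genes that did so was not computed.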

How the data were processed

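The authors sequenced 3′ libraries made with the 10x Chromium v3.1 kit and, per the submitters' notes, used Cell Ranger 6.0.1, mm10 and Seurat 4.3.0. The deposited values are raw UMI counts per gene and barcode, in sum 12549471 for KO and 3414944 for DKO, and no barcode was under 500. No table of the authors' cell types was used here. The study's limits were applied, so a barcode needed 300 to 5000 genes and no more than 10% of its UMIs from mitochondrial genes. No barcode had over 5000 genes.

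Cells were classed by marker counts, without clustering, in Python 3.11.15. Doublets were scored with Scrublet in scanpy 1.11.5 and none removed in the reported values. Thinning drew 2000 UMIs per cell without replacement (seed 1). Ratios added 0.5 to both UMI sums, and their intervals are exact conditional 95% intervals. Shares have Clopper-Pearson intervals, CPM exact Poisson intervals, and a count of 0 allows 3 counts. edgeR 4.0.16 gave TMM factors only. The ratios, their intervals and the thinning were tested on simulated data, and the class gate was not. There was no replicate, so no test was run. No ambient RNA correction was made.

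The members, classes and lists were chosen with earlier results of these data known. By rule, named genes were the members with the 8 highest UMI sums in each part, Mki67, Top2a, Cdk1, Pcna, Mcm2 and Rrm2, and in each of 3 classes the 10 other genes with the highest ratio between cells with 5 or more members and the rest (at least 20 UMIs in the former). Other members, such as those past a fold of 2, were named after their values were seen. A gene that the rule names is not reported here.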

Additional observations from a re-analysis of the deposited data

Results flagged for a closer look

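The ratio of DKO over KO lay on opposite sides of 0 in monocyte/macrophage-like and in T and innate lymphoid-like cells, with both counting intervals clear of 0, for 2 sums and 6 members. Members needed at least 20 UMIs in both classes, and 26 and 36 of the 43 had them in each class alone. The share of all genes with such opposite ratios was not computed. With 1 library per genotype the difference between the classes was not tested. The summed G2/M genes had log2 ratios of 0.65 and -0.91, and the summed broad genes 0.29 and -0.35, in that order of classes.

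Ccnb2 had 2.66 and -3.09, from 12 and 17 UMIs (KO and DKO) in the first class and 42 and 1 in the second. Ube2c had 1.44 and -4.63, Birc5 1.32 and -3.25, Cdca8 1.16 and -3.63, Top2a 0.83 and -1.77, and Stmn1 0.92 and -0.57. Cells with 10 or more members numbered 23 in KO and 3 in DKO in the T and innate lymphoid-like class and 8 and 5 in the monocyte/macrophage-like class. They were chosen by the same members, so leaving them out takes away many of the UMIs compared. Without them the broad sum of the monocyte/macrophage-like class was at 2222 and 2656 CPM, against 2229 and 2727 with them. Without them the G2/M ratio was 0.17 (-0.01 to 0.35) in the first class and 0.67 (0.39 to 0.94) in the second. TMM scaling moved log2 ratios of the first class by -0.11, more than the lower bound of 0.07 for Top2a there.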

How the results depend on the processing

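Of 128 values recomputed under alternatives for 16 results, 84 stayed the same, 42 moved and 2 changed sign. A value was the same inside the counting interval of the main value or, for counts of members, near the main count. The ratios that moved kept their sign. No paired analysis was possible because each genotype had 1 library, and for the same reason no replicate could be left out. Leaving out cells with 10 or more members, chosen after seeing the data, turned the T and innate lymphoid-like ratios of DKO over KO to 0.20 (S) and 0.67 (G2/M), and moved the monocyte/macrophage-like G2/M ratio to 0.17. Without the gene with the most UMIs the monocyte/macrophage-like S ratio was 0.37 and the T and innate lymphoid-like G2/M ratio -2.16. Without Pcna, Cenpa, Mki67, Bub1b, Kif23 and Aurka, also chosen after seeing the data, these were 0.37 and -2.35, and the monocyte/macrophage-like G2/M ratio was 1.55. Without the barcodes in the top 5% of doublet scores (115 and 23) that ratio was 0.47. TMM shifted log2 ratios by -0.11 (monocyte/macrophage-like), -0.08 (B cell-like) and 0.03 (T and innate lymphoid-like).

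Shares of cells with 5 or more members depended on depth and limit and are given as percentages for monocyte/macrophage-like, B cell-like and T and innate lymphoid-like cells in turn. At 1000 UMIs they were 0.409, 0.943 and 6.33 in KO and 1.24, 1.23 and 3.57 in DKO. At 3000 UMIs they were 4.02, 8.93 and 27.4 in KO and 5.07, 4.55 and 25% in DKO. At no more than 5% mitochondrial UMIs, with another random draw, they were 1.15, 2.40 and 15.8 in KO and 1.33, 6.02 and 11.1 in DKO, so that the first DKO share went from 8 to 4 cells. Without thinning the first and last classes had 16.5 and 37.1 in KO and 14.2 and 33.0 in DKO. For 3 or more members they were 25.7, 30.2 and 57.4 in KO and 20.6, 39.6 and 58.3 in DKO. For 8 or more they were 0.143, 0.592 and 5.15 in KO and 0.664, 0.746 and 1.85 in DKO. For 5 or more of the 40 members other than Stmn1, Hmgb2 and H2afz they were 0.358, 1.18 and 5.50 in KO and 0.997, 0.746 and 2.78 in DKO. At a minimum of 50 UMIs the members past a fold of 2 were 2 higher in the first class, 0 lower in the second, and 0 higher and 9 lower in the last, where fewer members were counted (17, 6 and 22). The cause of the other moves was not tested. With 44 and 12 neutrophil-like cells at 2000 UMIs, shares of members near background could not be read.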

Other observations

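Ungated cells also held members. 5 or more were found in 30 of 222 for KO (13.5%, 9.31 to 18.7) and 14 of 65 for DKO (21.5%, 12.3 to 33.5), with median depths of 10359 and 12513 UMIs against 1524 and 1678 in the other ungated cells. After thinning there were 6 of 109 (5.50%, 2.05 to 11.6) and 2 of 37 (5.41%, 0.661 to 18.2). The few epithelial-like cells had 5 or more members in 6 of 11 KO cells and 1 of 2 DKO cells, and plasma cell-like cells in 4 of 5 KO cells. Dendritic cell-like cells had 7 of 25 in KO and 6 of 15 in DKO, and 2 and 0 of these had 10 or more.

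Of the G2/M members Kif23, Mki67 and, in KO, Cenpa were also counted in neutrophil-like cells. Kif23 had UMIs in 8 of 147 KO and 5 of 44 DKO neutrophil-like cells, in which Top2a, Cdk1, Birc5 and Ube2c had none. Over all kept cells Cenpa was at 87.8 CPM in KO (82.7 to 93.2) and 151 CPM in DKO (138 to 164).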
